A study of Homo sapiens with 4 samples.

Results

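The nuclear pore and nuclear transport genes were described in HaCaT keratinocytes, an established human keratinocyte line, in which the long noncoding RNA lnc-DC had been silenced. The members were taken by name: the numbered nucleoporins (NUP), exportins (XPO), importins (IPO), karyopherins (KPNA and KPNB), transportins (TNPO) and THO complex subunits (THOC), with the mRNA export factors FYTTD1, ALYREF, NXF1, NXT1 and DDX39B. Of 63 names that matched, 6 were pseudogenes and were left out, so 57 of the 58825 genes in the deposited table were members. The 2 groups were Lnc-DCi, cells given lentivirus carrying a short hairpin against lnc-DC (shlnc-DC), and Control, cells given lentivirus with the control hairpin (shNC). Each group had 2 libraries, labelled biological replicates, and all 4 came from cells kept in MEPICF500 medium with 1.2 mM calcium. The labels give no hairpin sequence, no number of hairpins and no time after transduction, and are silent on whether each replicate was its own transduction. The p-values therefore speak only for the variation among these 4 libraries, which may be technical.

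Nuclear pores are large ring-shaped assemblies of nucleoporins that pierce the nuclear envelope. Scaffold rings hold a central channel lined with flexible phenylalanine-glycine repeats, a basket on the nuclear side and filaments on the cytoplasmic side. Importins carry proteins inward and exportins carry proteins and small RNAs outward, with direction set by the GTPase Ran. Messenger RNA leaves by a separate route, in which the THO complex, the helicase DDX39B and adaptors such as ALYREF and FYTTD1 load the receptor pair NXF1 and NXT1. In keratinocytes, as in other cells, this machinery serves the import of transcription factors and histones and the export of new transcripts.

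Expression was measured in bulk RNA as FPKM, fragment counts scaled by transcript length and library total, so fewer cells with a transcript and less of it per cell cannot be told apart. Each library listed 22351 to 22780 genes above 0. Read totals are not part of the table and could not be recovered from the spacing of low values, so no counting interval is given. WFDC21P, the gene of lnc-DC, was at 0.09 and 0.29 FPKM in the Lnc-DCi libraries, against 2.15 and 2.76 FPKM in the Control libraries. Its log2 fold change was -1.54 on log2(FPKM + 1), a scale that understates the change of low genes. The log2 ratio in the authors' deposited table was -3.68. The limma adjusted p was 0.0715, short of the threshold of 0.05. Transcripts of the mitochondrial genome took 28.1% and 26.8% of all FPKM in Lnc-DCi cells, against 41.2% and 41.9% in Control cells. Of 11 keratinocyte markers 9 reached the expression filter, and all 11 had a summed level of 451 and 499 FPKM in Lnc-DCi cells, against 758 and 806 FPKM in Control cells, while KRT14 did not exceed 0.35 FPKM and KRT17 did not exceed 0.85 FPKM. Most of that gap came from SFN, at 167 and 174 FPKM in Lnc-DCi cells, against 292 and 318 FPKM in Control cells, and KRT5, at 124 and 156 FPKM in Lnc-DCi cells, against 270 and 304 FPKM in Control cells. KRT6A was lower too, at 3.63 and 5.14 FPKM in Lnc-DCi cells, against 8.45 and 13.7 FPKM in Control cells. So was ITGA6, at 11.8 and 14.5 FPKM in Lnc-DCi cells, against 27.1 and 16.9 FPKM in Control cells. In all, 4 of the 9 tested markers had groups apart and lower (19.2% of all tested genes). PERP, DSP, ITGB4, TP63 and PKP1 overlapped between groups. The summed level of 7 fibroblast markers lay between 0.48 and 0.59 FPKM in Lnc-DCi cells and between 0.6 and 0.68 FPKM in Control cells, with COL1A2 and FAP at 0 throughout. For 5 melanocyte markers it was 0.34 to 0.39 FPKM in Lnc-DCi cells and 0.46 to 0.67 FPKM in Control cells, with TYR and SOX10 at 0. Among leukocyte and endothelial markers, CD68 had 12.9 and 12.4 FPKM in Lnc-DCi cells, against 10.3 and 12.2 FPKM in Control cells, and CDH5 did not exceed 6.42 FPKM and overlapped between groups, while PTPRC and CD207 were at 0 and PECAM1 did not exceed 0.01 FPKM. The part of the mitochondrial share and of the keratinocyte markers in the results below was not tested, except where a rescaled value is given.

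Most of the pore and transport genes stood somewhat higher in Lnc-DCi cells, and a single one, the mRNA export adaptor FYTTD1, passed the test over all genes. Tests used limma on log2(FPKM + 1) for the 12411 genes with a group mean of at least 1 FPKM, and 54 of the 57 members were among them. The median log2 fold change was 0.28 over the 54 members, against 0.09 over all tested genes. On that scale 47 members lay above 0, or 87%, against 61.4% of all tested genes, and 7 lay below 0. FYTTD1 was the 1 member higher at an adjusted p under 0.05 (background 0.113% of tested genes) and no member was lower (background 0.137%). At an unadjusted p under 0.05, 24 members were higher, or 44.4% (background 14.8%), and 1 was lower (background 8%). The groups did not overlap for 39 members that were higher in Lnc-DCi cells (background 35.6%) and for 5 that were lower (background 19.2%).

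**Figure D1:**
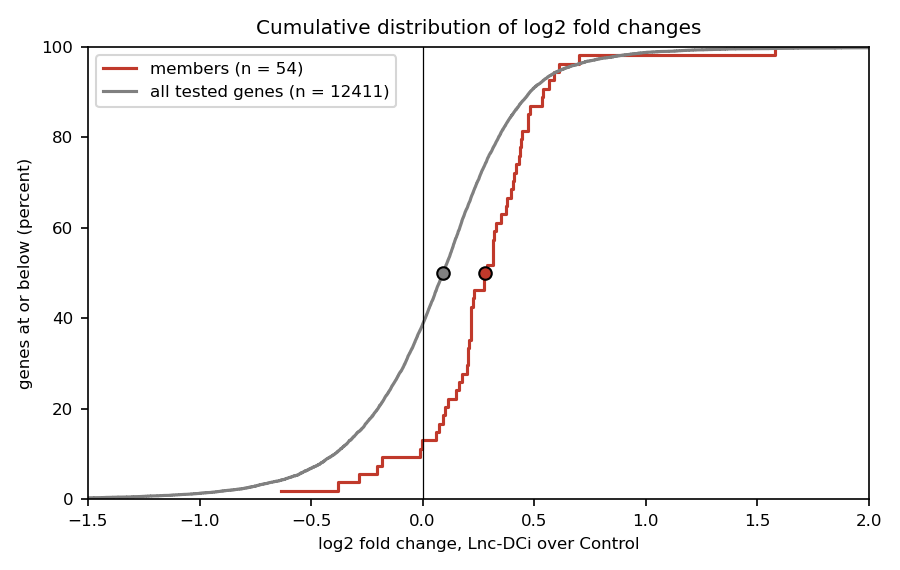
Cumulative distribution of the log2 fold change, Lnc-DCi over Control, for the 54 tested members and for all 12411 tested genes; the x axis is the log2 fold change, the y axis the percent of genes at or below it, and each dot marks a median. The members' curve lies to the right of the other over most of its length, with medians of 0.28 and 0.09, and its last step is FYTTD1 at 1.58.

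Among the members, the median absolute log2 fold change was 0.31. The median absolute difference on that scale between replicate libraries was 0.10 for the members in Lnc-DCi cells and 0.15 in Control cells. The members differed from the average gene in level, with a median of 15.7 FPKM against 5.43 FPKM, and in base composition, with a median transcript GC content of 45.6% against 49.3%. Fold change and GC content went in opposite directions across genes, with a Spearman rho of -0.30 over the 54 members and -0.23 over all tested genes. These genes share the same 4 libraries and are not independent replicates. With dependence on GC content and length removed from each library, the medians were 0.21 for the members and 0.02 for all tested genes, and the members higher at an unadjusted p under 0.05 numbered 14 (12% of all tested genes). That count was 15 after rescaling to nuclear genes, 13 with median centring, 12 with quantile normalization and 10 to 17 with 1 library left out, where all tested genes gave 11.3%, 9.54%, 10.8% and 7.95% to 12.1%. Single members other than FYTTD1 are given below as values.

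**Figure D2:**
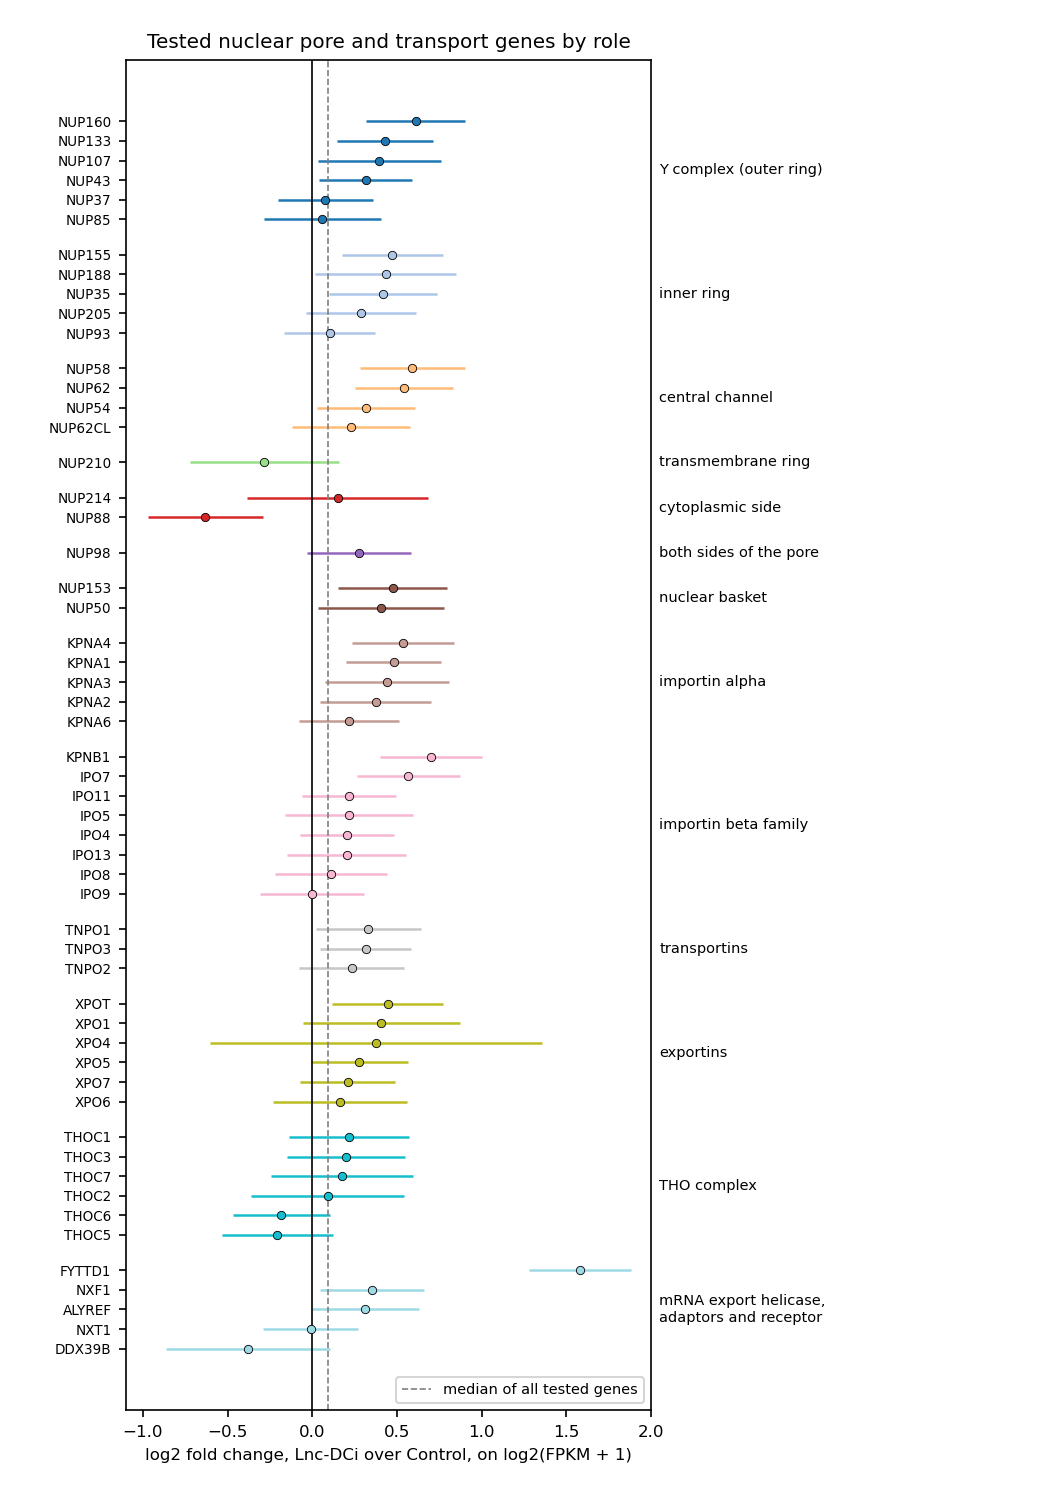
Log2 fold change of each tested member, Lnc-DCi over Control, on log2(FPKM + 1), grouped by role; points are limma estimates from 2 libraries per group, bars are 95% confidence intervals, and the dashed line is the median of all tested genes. FYTTD1 lies far to the right at 1.58, NUP88 farthest to the left at -0.63, and most others between 0 and 0.7.

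FYTTD1, which codes for UIF, an adaptor that binds DDX39B and hands mRNA to NXF1, rose in Lnc-DCi cells. Its value was 9.99 and 9.12 FPKM in the Lnc-DCi libraries, against 2.53 and 2.52 FPKM in the Control libraries. Both Lnc-DCi values stood well above both Control values, and the Control pair was nearly identical. The means of 9.56 ± 0.615 FPKM in Lnc-DCi cells and 2.53 ± 0.00707 FPKM in Control cells (SD, n = 2 each) differ 3.78-fold. The log2 fold change was 1.58 (SE 0.115, 95% interval 1.28 to 1.88), with a limma adjusted p of 0.0389, and the gene ranked 18 among all tested genes by p. For FYTTD1 the log2 ratio in the authors' deposited table was 1.92. Its log2 fold change stayed between 1.45 and 1.88 under 14 alternative settings, but the adjusted p lay between 0.175 and 0.245 when any 1 library was left out. The limma adjusted p was 0.170 with no expression filter and 0.0980 with replicate number as a block, so the call was lost there too. The expression filters, a robust fit and that block cannot move the log2 fold change, so they do not test its direction. FYTTD1 (ENSG00000122068) lies on the plus strand of chromosome 3, from 197737179 to 197787596 in GENCODE 29 (GRCh38), and 118 of its 8025 exon bases are shared with RUBCN on the opposite strand, which had 3.49 and 2.92 FPKM in Lnc-DCi cells and 2.55 and 2.41 FPKM in Control cells.

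None of the other 4 factors of the mRNA export route passed the threshold. ALYREF, the main export adaptor of the route and the most abundant of these factors, had 51.6 and 52.3 FPKM in Lnc-DCi cells, against 38.7 and 44.7 FPKM in Control cells. Its log2 fold change was 0.31 (SE 0.119, limma adjusted p = 0.219) and 0.20 with quantile normalization, with the groups apart. NXF1, the large subunit of the export receptor, had 11.1 and 10.6 FPKM in Lnc-DCi cells and 8.83 and 7.78 FPKM in Control cells, a log2 fold change of 0.35 (adjusted p = 0.182). NXT1, its small partner, had 25.5 and 23.8 FPKM in Lnc-DCi cells, against 23.9 and 25.6 FPKM in Control cells. The groups overlapped for NXT1, and the 95% interval of its log2 fold change ran from -0.29 to 0.27.

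DDX39B, the helicase UAP56 that starts the loading of adaptors, was one of the 5 members whose Lnc-DCi values lay wholly below the Control values. It had 19.4 and 27.4 FPKM in Lnc-DCi cells, against 31.1 and 29.5 FPKM in Control cells, with a log2 fold change of -0.38 (SE 0.185, limma adjusted p = 0.303) that was -0.14 without Lnc-DCi replicate 1 and -0.62 without Lnc-DCi replicate 2. The Lnc-DCi replicates differed from each other by more than replicate 2 differed from Control. DDX39B shares 2079 of its 7007 exon bases, or 29.7%, with the readthrough gene ATP6V1G2-DDX39B on the same strand of chromosome 6. The readthrough was listed at 30.3 and 9.81 FPKM in Lnc-DCi cells, against 4.22 and 3.69 FPKM in Control cells. The sum of both was 49.7 and 37.2 FPKM in Lnc-DCi cells, against 35.3 and 33.2 FPKM in Control cells, so the lower value of DDX39B was not seen in the sum. The table does not show how reads from shared exons were divided. DDX39A, the close relative of DDX39B that can take its place, was no member by name, but stood at 20.7 and 20.6 FPKM in Lnc-DCi cells, against 10.8 and 11.2 FPKM in Control cells. Its log2 fold change of 0.85 had a limma adjusted p of 0.0661, which ranged from 0.0477 to 0.255 over the alternatives and passed 0.05 only with the stricter expression filter. DDX39A made up 51.6% and 43.0% of the summed DDX39A and DDX39B level in Lnc-DCi cells, against 25.8% and 27.5% in Control cells, while that sum was 40.1 and 48.0 FPKM in Lnc-DCi cells and 41.9 and 40.7 FPKM in Control cells. With the readthrough added to DDX39B, the DDX39A share was 29.4% and 35.7% in Lnc-DCi cells, against 23.4% and 25.2% in Control cells, so most of the gap in the share depends on whether the readthrough is counted.

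**Figure D3:**
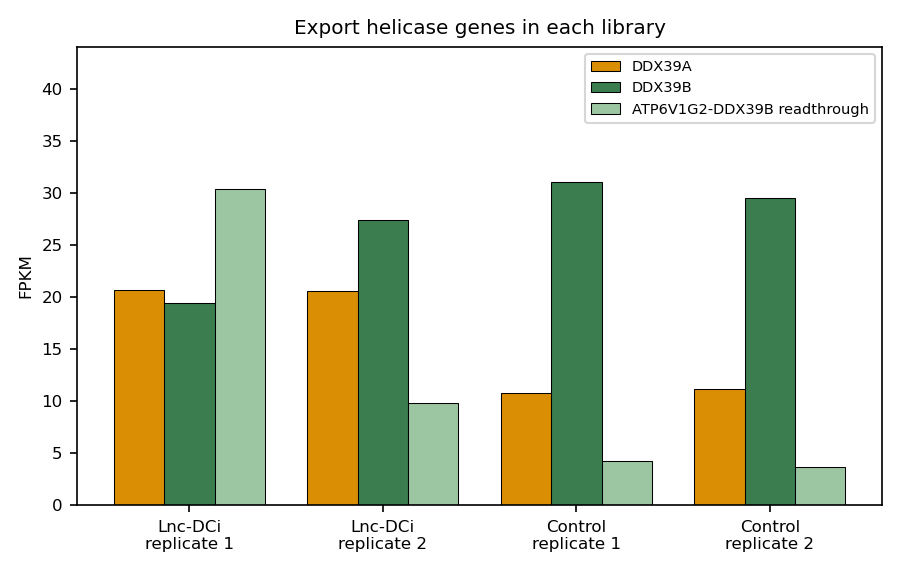
FPKM of DDX39A, DDX39B and the ATP6V1G2-DDX39B readthrough in each of the 4 libraries; each bar is 1 gene in 1 library. DDX39A is near 20.6 in both Lnc-DCi libraries and near 11 in both Control libraries, and the readthrough reaches 30.3 in Lnc-DCi replicate 1.

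The THO complex, which binds nascent transcripts and recruits DDX39B, showed no common direction. None of its 6 tested subunits passed over all genes (0.113% higher and 0.137% lower among all tested genes). None had an unadjusted p under 0.05 (14.8% higher and 8% lower). The groups were apart for 2 that were higher (35.6% of all tested genes) and 2 that were lower (19.2%). The median log2 fold change was 0.13, close to the 0.09 of all tested genes. THOC6 had 18.3 and 17.4 FPKM in Lnc-DCi cells, against 19.5 and 21.3 FPKM in Control cells, and THOC5 also lay lower, with log2 fold changes of -0.18 for THOC6 and -0.21 for THOC5. The THOC6 value was -0.12 without Control replicate 2 and -0.30 with quantile normalization. THOC6 shares 260 of its 1860 exon bases, or 14.0%, with HCFC1R1 and 74 with BICDL2, both on the opposite strand. HCFC1R1 had 5.04 and 3.30 FPKM in Lnc-DCi cells, against 9.18 and 10.2 FPKM in Control cells, and BICDL2 was lower too. The strand setting of the counting is not given, so part of the THOC6 value could not be told apart from these genes. THOC3, the most abundant subunit, had 32.8 and 36.8 FPKM in Lnc-DCi cells, against 27.8 and 32.7 FPKM in Control cells (log2 fold change 0.20, limma adjusted p = 0.431). Its value was 0.12 without Lnc-DCi replicate 2, 0.085 without Control replicate 1, 0.31 without Control replicate 2, 0.12 with median centring and 0.075 with quantile normalization. The remaining THOC1, THOC2 and THOC7 had log2 fold changes of 0.22, 0.09 and 0.18, and THOC2 turned below 0 without Control replicate 2, with quantile normalization and with GC content and length removed.

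Scaffold nucleoporins of the pore were higher in Lnc-DCi cells as values, with none past the threshold over all genes. In the Y complex, the building block of the outer rings, all 6 members lay above 0 (61.4% of all tested genes) with a median of 0.36, and 4 were higher at an unadjusted p under 0.05 (14.8% of all tested genes). NUP160 had 20.6 and 21.3 FPKM in Lnc-DCi cells, against 14.2 and 12.6 FPKM in Control cells, with a log2 fold change of 0.61 (SE 0.112, limma adjusted p = 0.0959). NUP133 had 20.6 and 21.7 FPKM in Lnc-DCi cells, against 14.8 and 16.1 FPKM in Control cells (0.43, adjusted p = 0.125, and 0.26 with GC content and length removed). For both genes the groups were apart. By contrast NUP37 and NUP85, of the same complex, had overlapping groups and log2 fold changes of 0.08 and 0.06. Both turned below 0 under median centring and quantile normalization, NUP37 also with GC content and length removed and NUP85 without Lnc-DCi replicate 1. The remaining NUP107 and NUP43 gave 0.40 and 0.32, with groups apart and higher (35.6% of all tested genes). Levels of the 6 Y complex genes were of one order, with means over the 4 libraries from 10.2 to 18.3 FPKM.

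The inner ring, which anchors the channel nucleoporins to the envelope, gave a median log2 fold change of 0.42 over 5 members, all with groups apart and higher (35.6% of all tested genes) and 3 with an unadjusted p under 0.05 (14.8%). NUP155 had 16.8 and 17.0 FPKM in Lnc-DCi cells, against 12.7 and 11.2 FPKM in Control cells, with a log2 fold change of 0.47 (SE 0.114, limma adjusted p = 0.119) that was 0.29 with GC content and length removed. NUP188 had 30.6 and 26.1 FPKM in Lnc-DCi cells and 23.1 and 18.4 FPKM in Control cells (0.43, adjusted p = 0.206), and its log2 fold change was 0.28 without Control replicate 2. NUP93 differed least, at 12.2 and 11.7 FPKM in Lnc-DCi cells and 10.98 and 11.07 FPKM in Control cells. Its log2 fold change of 0.10 turned below 0 under quantile normalization.

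The central channel genes had the highest median of the larger pore groups, 0.43 over 4 members. NUP62, NUP58 and NUP54 code for the repeat-bearing trio that lines the channel. NUP58 had 13.3 and 12.03 FPKM in Lnc-DCi cells, against 8.47 and 7.67 FPKM in Control cells, with a log2 fold change of 0.59 (SE 0.118, limma adjusted p = 0.104). NUP62 had 16.6 and 15.5 FPKM in Lnc-DCi cells and 11.2 and 10.3 FPKM in Control cells (0.54, adjusted p = 0.105). NUP54 followed at 0.32, and NUP62CL, which resembles the end of NUP62, at 0.23. NUP62 shares 626 exon bases with ATF5 on the opposite strand, itself at 7.43 and 6.74 FPKM in Lnc-DCi cells, against 3.55 and 3.34 FPKM in Control cells. Whether reads were counted by strand is not given in the sources used here, so part of the NUP62 value could not be told apart from ATF5.

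At the faces of the pore the values of single members differed in direction, and the lower value on the cytoplasmic side was that of NUP88 alone. NUP153 and NUP50, of the nuclear basket, had log2 fold changes of 0.47 and 0.41, with NUP153 at 30.7 and 30.5 FPKM in Lnc-DCi cells, against 23.6 and 20.1 FPKM in Control cells (limma adjusted p = 0.131). NUP98, a mobile repeat nucleoporin found on both sides, had 22.7 and 20.9 FPKM in Lnc-DCi cells and 18.8 and 16.8 FPKM in Control cells (0.28, adjusted p = 0.249), with 0.14 under quantile normalization and 0.16 with GC content and length removed. On the cytoplasmic side NUP88, which holds the export platform together with NUP214, was the lowest member of all. It had 11.4 and 13.6 FPKM in Lnc-DCi cells, against 19.1 and 20.6 FPKM in Control cells. Both Lnc-DCi values lay below both Control values, and the mean was 12.5 ± 1.53 FPKM in Lnc-DCi cells and 19.9 ± 1.06 FPKM in Control cells (SD, n = 2 each). The log2 fold change was -0.63 (SE 0.129, 95% interval -0.97 to -0.29), with a limma adjusted p of 0.105 that ranged from 0.0778 to 0.317 over 13 alternatives, all of the same sign. Among these alternatives the expression filters, a robust fit and replicate number as a block cannot move the log2 fold change, so their sign was fixed. NUP88 was the 1 member lower in Lnc-DCi cells at an unadjusted p under 0.05. NUP214, its partner, had overlapping groups, at 8.71 and 7.12 FPKM in Lnc-DCi cells and 8.43 and 5.80 FPKM in Control cells (log2 fold change 0.15). Among related genes of the cytoplasmic side, RANBP2, DDX19A and GLE1 gave 0.53, 0.60 and 0.28, while DDX19B and AAAS gave 0.07 and -0.02. TPR, of the nuclear basket, gave 0.12 with overlapping groups. NUP88 lies on the minus strand of chromosome 17, from 5360963 to 5420160, and shares 520 exon bases with RPAIN and 468 with RABEP1 on the opposite strand. RPAIN had 7.35 and 7.19 FPKM in Lnc-DCi cells, against 5.67 and 5.79 FPKM in Control cells, the opposite direction to NUP88, while RABEP1 overlapped between groups.

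NUP210, a membrane-spanning nucleoporin, also lay lower, at 10.2 and 8.65 FPKM in Lnc-DCi cells, against 13.3 and 10.2 FPKM in Control cells. Its groups barely parted, with a log2 fold change of -0.28 and an adjusted p of 0.38 by limma. That value was -0.18 without Lnc-DCi replicate 2, -0.11 without Control replicate 1 and -0.46 without Control replicate 2. Its relative NUP210L did not exceed 0.02 FPKM and was not tested. Other membrane-spanning pore genes, no members by name, lay above 0. NDC1 gave a log2 fold change of 0.28 with groups apart, and POM121C and POM121 gave 0.49 and 0.29 with overlapping groups.

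**Figure D4:**
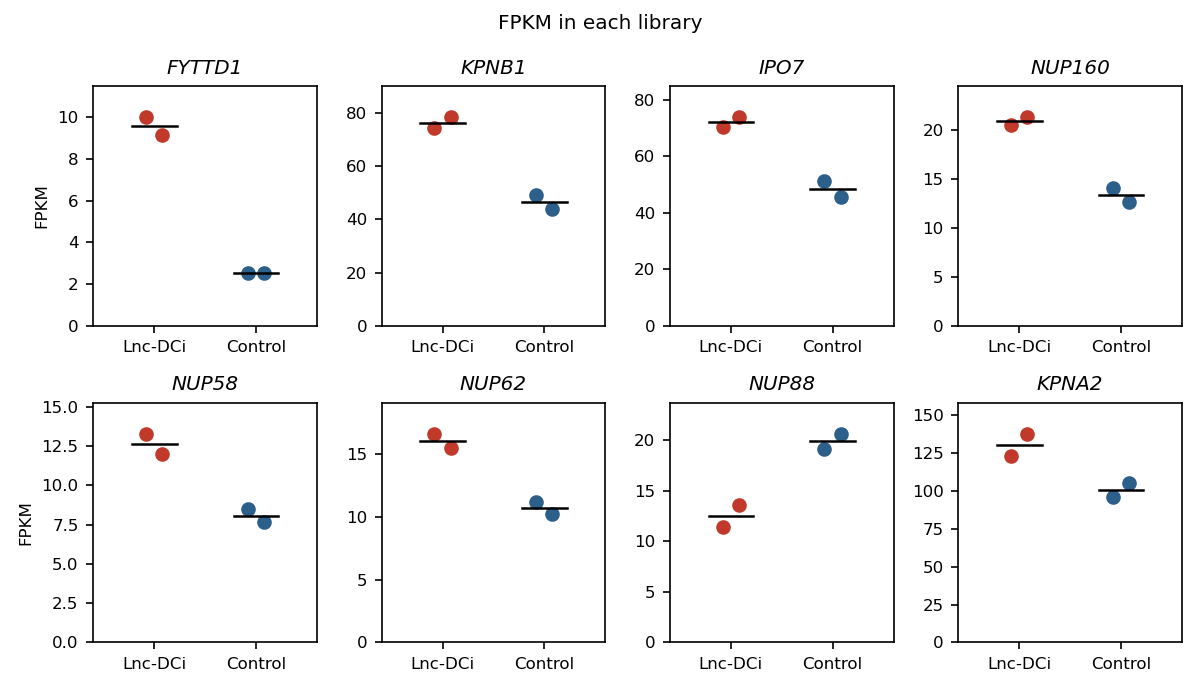
FPKM of 8 members in each library, Lnc-DCi left of Control in each panel; points are libraries, short lines are group means, and every y axis starts at 0. In 7 panels both Lnc-DCi points lie above both Control points, and in the NUP88 panel both lie below.

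Importin alpha proteins read the classical nuclear localization signal and KPNB1, importin beta, carries them through the pore. KPNB1 had 74.3 and 78.3 FPKM in Lnc-DCi cells, against 49.2 and 44.02 FPKM in Control cells. Its groups were well apart, and after FYTTD1 it had the smallest p among the members, with a log2 fold change of 0.70 (SE 0.115, 95% interval 0.40 to 1.002, limma adjusted p = 0.0858). That adjusted p lay between 0.0719 and 0.296 under 13 alternatives. KPNA2, the most abundant of all members and an importin alpha typical of dividing cells, had 123 and 138 FPKM in Lnc-DCi cells, against 95.9 and 105 FPKM in Control cells (0.37, adjusted p = 0.181). KPNA4 had 15.7 and 15.3 FPKM in Lnc-DCi cells, against 11.1 and 9.77 FPKM in Control cells (0.53, adjusted p = 0.111), and KPNA1 had 15.4 and 14.2 FPKM in Lnc-DCi cells, against 10.4 and 10.2 FPKM in Control cells (0.48, adjusted p = 0.113). All 5 tested importin alpha genes had groups apart and higher in Lnc-DCi cells (35.6% of all tested genes), and 4 had an unadjusted p under 0.05 (14.8%). KPNA2 made up 65.5% and 69.6% of the summed importin alpha level in Lnc-DCi cells, against 66.7% and 71.3% in Control cells, so its share overlapped between groups. The summed level itself was 188 and 198 FPKM in Lnc-DCi cells and 144 and 147 FPKM in Control cells. KPNA5 and KPNA7 did not exceed 0.71 FPKM and were not tested.

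The other importins of the beta family were less uniform. IPO7, an import receptor for ribosomal proteins and linker histones, had 70.4 and 73.7 FPKM in Lnc-DCi cells, against 51.4 and 45.5 FPKM in Control cells. Both Lnc-DCi values were above both Control values, with a log2 fold change of 0.57 (SE 0.116, limma adjusted p = 0.105). IPO5, a receptor for ribosomal proteins and histones, had 32.1 and 33.0 FPKM in Lnc-DCi cells, against 24.8 and 31.3 FPKM in Control cells, with the log2 fold change at 0.22. IPO4, IPO11 and IPO13 gave 0.21, 0.22 and 0.20, and IPO8 gave 0.11 with overlapping groups. IPO9, a receptor for histones and actin, had 19.2 and 17.6 FPKM in Lnc-DCi cells, against 19.4 and 17.4 FPKM in Control cells, and the 95% interval of its log2 fold change was -0.31 to 0.31. IPO4 shares 69.3% of its exon bases with a clone-named gene on the same strand, so its value depends on how reads were divided. The 3 transportins, which carry hnRNP and SR proteins among others, had log2 fold changes of 0.33 (TNPO1), 0.32 (TNPO3) and 0.23 (TNPO2), with groups apart and higher for all 3 (35.6% of all tested genes). TNPO3, the receptor for SR splicing factors, had 21.6 and 21.8 FPKM in Lnc-DCi cells, against 16.7 and 17.7 FPKM in Control cells (limma adjusted p = 0.176), and its log2 fold change was 0.20 with quantile normalization.

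Exportins lay above 0 in all 6 cases (61.4% of all tested genes), with a median log2 fold change of 0.33, but XPO4 turned below 0 without Control replicate 2. Among them 1 was higher at an unadjusted p under 0.05 (14.8% of all tested genes). That one was XPOT, the exporter of tRNA, at 57.9 and 53.6 FPKM in Lnc-DCi cells, against 43.7 and 37.8 FPKM in Control cells, with a log2 fold change of 0.44 (SE 0.125, limma adjusted p = 0.147). With GC content and length removed it was 0.26, with an unadjusted limma p of 0.0608, and the unadjusted p was also above 0.05 with quantile normalization (0.0812), without Lnc-DCi replicate 1 (0.0899) and without Control replicate 2 (0.0765). XPO1, the receptor for leucine-rich export signals also called CRM1, had 29.7 and 24.1 FPKM in Lnc-DCi cells, against 22.6 and 17.5 FPKM in Control cells (0.41, adjusted p = 0.259). Its log2 fold change was 0.26 without Lnc-DCi replicate 1, 0.23 without Control replicate 2 and 0.21 with GC content and length removed. In both groups replicate 1 of XPO1 was higher than replicate 2, by nearly as much as the groups differed. XPO5, the exporter of microRNA precursors, had 16.7 and 16.8 FPKM in Lnc-DCi cells and 14.4 and 13.0 FPKM in Control cells. XPO4 was the least steady member, at 4.63 and 2.71 FPKM in Lnc-DCi cells and 3.82 and 1.57 FPKM in Control cells, and the 95% interval of its log2 fold change ran from -0.61 to 1.36.

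The start regions of the members were searched for 4 short motifs. RefSeq windows of 250 bases before the start (GRCh38.p14) were matched for 50 of the 57 members. The letters CCGGAAG, a core read by ETS-family factors, were found on either strand in 17 of the 50 windows (34%), against 17.6% of 8542 windows of tested genes and 8.82% of all 27305 windows. CCAAT occurred in 44% of member windows, 36.2% of those of tested genes and 33% of all, the NRF1 palindrome in 6%, 2.17% and 1.13%, and TATAAA in 10%, 4.89% and 11.1%. These are matches of letters in a window, with no test, and say nothing of binding. FYTTD1 had none of the 4 motifs in its window, while NUP88 had CCAAT and CCGGAAG. Stretches free of annotated exons are printed only where they hold a match. Those of IPO7, KPNA1, NUP155, NUP133 and NUP210 held none. Below are the stretches for 3 members, a pair of exportins that were higher in Lnc-DCi cells and NXT1, which was not. Capitals mark CCGGAAG or CCAAT or their reverse complements CTTCCGG and ATTGG, each sequence reads from 5′ to 3′ on the gene's strand, and the coordinates are on GRCh38.p14.
XPOT, plus strand, chr12:64404142-64404349: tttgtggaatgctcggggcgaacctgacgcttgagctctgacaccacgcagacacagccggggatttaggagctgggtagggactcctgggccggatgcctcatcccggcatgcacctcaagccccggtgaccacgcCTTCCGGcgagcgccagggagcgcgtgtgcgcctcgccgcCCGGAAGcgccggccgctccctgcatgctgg
XPO1, minus strand, chr2:61538357-61538491: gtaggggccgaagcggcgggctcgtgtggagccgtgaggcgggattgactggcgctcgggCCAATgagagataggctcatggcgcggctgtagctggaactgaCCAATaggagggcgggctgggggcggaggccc
NXT1, plus strand, chr20:23350541-23350735: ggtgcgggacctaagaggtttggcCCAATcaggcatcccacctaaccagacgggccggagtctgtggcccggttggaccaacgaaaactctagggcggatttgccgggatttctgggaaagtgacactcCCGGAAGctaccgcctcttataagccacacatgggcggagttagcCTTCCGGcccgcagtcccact
In XPOT the 2 matches of CCGGAAG begin 113 and 73 bases before the start, and in NXT1 they begin 121 and 76 bases before it. THOC3 also had an exon-free stretch, with 1 match, which is not printed. Any link between the motifs and the fold changes was not tested. XPO1 carried CCAAT at 75 and 32 bases before its start and no CCGGAAG in the printed stretch.

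Related genes that the name patterns do not take in were counted in the same way. Among 13 other nuclear pore genes none passed over all genes and 12 lay above 0, against 61.4% of all tested genes (median log2 fold change 0.36). DDX19A, a helicase that releases mRNA at the cytoplasmic face, had 9.34 and 9.30 FPKM in Lnc-DCi cells, against 5.80 and 5.84 FPKM in Control cells (0.60, limma adjusted p = 0.0921). RAE1, the partner of NUP98, gave 0.36, and 0.23 with quantile normalization. SEH1L, a Y complex subunit, gave 0.38, and 0.25 with GC content and length removed. RANBP2, the large filament nucleoporin, had 16.3 and 15.6 FPKM in Lnc-DCi cells and 13.2 and 8.70 FPKM in Control cells. Among 10 genes of the Ran cycle and other receptors 9 lay above 0 (median 0.28) and none passed. RANBP1 and RANGAP1, which help Ran to hydrolyse GTP, gave 0.50 and 0.46 with adjusted p of 0.111 each by limma. HIKESHI, the carrier that brings HSP70 into the nucleus under heat stress, was the exception, at 5.73 and 5.18 FPKM in Lnc-DCi cells, against 8.22 and 8.31 FPKM in Control cells (-0.52, adjusted p = 0.111). RCC1, which loads Ran with GTP, had 38.3 and 24.0 FPKM in Lnc-DCi cells, against 15.5 and 15.9 FPKM in Control cells (0.91, adjusted p = 0.131). RAN itself had 81.1 and 132 FPKM in Lnc-DCi cells, against 97.9 and 91.2 FPKM in Control cells, with overlapping groups. Of 23 tested other mRNA export genes 21 lay above 0 (median 0.31) and none passed; besides DDX39A, the smallest p belonged to NCBP1, the large cap-binding subunit (0.38, limma adjusted p = 0.152), and NXT2, a relative of NXT1 (0.49, adjusted p = 0.155). With GC content and length removed they were at 0.24 for NCBP1 and 0.28 for NXT2.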

How the data were processed

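RNA-seq was done on oligo(dT)-selected mRNA from 5 µg of total RNA, read as pairs of 150 bases, per the labels' protocols. Tools named, per the submitters' processing notes, were StringTie 1.3.4d, HISAT2 2.0.4 and cutadapt 1.9, besides edgeR and DESeq2; their roles, the genome build, the annotation and the strand setting are not given there. The authors deposited FPKM values with 2 decimals, and the authors' deposited ratio of group means with its log2. Because FPKM is a share of a library, a few abundant transcripts can move all others. The table holds no counts, so the test foreseen for normalized values was used: limma 3.58.1 in R 4.3.3 on log2(FPKM + 1), trend on, group as the only term, two-sided, Benjamini-Hochberg over 12411 genes with a group mean of at least 1 FPKM, threshold 0.05. This scale understates the change of low genes. The smallest p an exact permutation test could reach with 2 libraries per group is 0.333, so the p-values depend on the spread that limma pools over genes. The fit was tested on simulated data drawn from its own fitted spread, gene by gene. Such data hold no effect shared by the genes of a library, so that check does not bear on such effects. Low FPKM values came within 0.1 of a whole read for at most 28.7% to 31.7% of values, so reads were not recovered. There were 0 columns without a sample. GENCODE 29 (GRCh38) held 58552 of the 58825 gene IDs and was used for positions, GC content, length and exon overlap; start windows came from RefSeq (GRCh38.p14), and exon-free stretches by GENCODE 29.

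The members, roles, related lists and tests were chosen with earlier results of these data known. Named genes were WFDC21P, members past the threshold, the 12 largest changes among members with groups apart, the smallest p and highest level in each role, FYTTD1, ALYREF, NXF1, NXT1, DDX39B, KPNA2, KPNB1 and XPO1, and up to 3 genes with the smallest p in each related list; others were chosen after their values were seen. Of 21 pseudogene copies of members 10 were at 0 in all libraries and none exceeded 1.0 FPKM.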

Additional observations from a re-analysis of the deposited data

How the results depend on the processing

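The direction of the members' median held under all 14 alternatives. One of them, leaving out genes that share at least 3% of their exon bases with another, was added after seeing the data. The robust fit and the replicate block leave every log2 fold change as it was by construction. The filters on level and on shared exons change only which genes enter, so these settings say little of the direction. The median was 0.16 with quantile normalization, 0.20 with median centring and 0.21 with GC content and length removed, and 0.22 to 0.34 with 1 library left out. Its distance from the median of all tested genes was 0.26 with no filter, 0.15 with a mean of at least 5 FPKM, 0.14 with quantile normalization, and 0.17 to 0.22 with 1 library left out. Members higher at an unadjusted p under 0.05, with the share of all tested genes in parentheses, numbered 12 with quantile normalization (10.8%), 13 with median centring (9.54%), 15 rescaled to nuclear genes (11.3%), 14 with GC content and length removed (12%), 15 of 34 without overlapping exons (14.7%) and 10 to 17 with 1 library left out (7.95% to 12.1%). Members lower numbered 3 with quantile normalization (11.4%), 2 with the replicate block (10.4%) and 2 with GC content and length removed (11.3%). Without overlapping exons there were 0 (8.01%), but that setting left out NUP88, the 1 member lower in the main fit. NUP88 shares 9.82% of its exon bases with RPAIN, so the 0 is no new test of it. The call of FYTTD1 was lost, leaving 0 members, with no filter (adjusted p = 0.170), the replicate block (0.0980) and 1 library left out (0 members in each case); over all alternatives its adjusted p ranged from 0.0360 to 0.245. Over all genes, 32 were higher with a mean of at least 5 FPKM, 40 were lower with quantile normalization and 29 with GC content and length removed; 0 were higher and 0 lower with no filter (3876 at an unadjusted p under 0.05), with the replicate block (3791) and with 1 library left out (0 in each direction, 1797 to 2251 at an unadjusted p under 0.05). NXT1 ranged from -0.058 to 0.039 with 1 library left out, above 0 without Lnc-DCi replicate 2 (0.039) and without Control replicate 2 (0.037), and was at 0.0082 with GC content and length removed. The cause of these changes was not tested. Of 474 values of 35 named genes under the alternatives 464 kept direction and side of the threshold. All of these genes but FYTTD1 were short of the threshold in the main fit, so most could lose no call. FYTTD1 kept its call in 8 of 14 alternatives. The labels give the same replicate numbers to both groups but no shared batch or day. Deviations of same-numbered libraries correlated across genes at an r of 0.124 (0.593 over the members), which with 2 pairs does not show pairing, and under the replicate block 26 members were higher at an unadjusted p under 0.05, beside 20.1% of all tested genes. Read depth is unknown, so the counting error of low genes such as XPO4 could not be given.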
